A study of Mus musculus with 6 samples.

Results

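The weak sites with a PU.1 peak called before induction, and again afterwards, were 1766 regions of the mouse genome. PU.1 binding had been mapped by ChIP-seq, in which DNA cross-linked to a protein is pulled down with an antibody and sequenced, in iBN cells. The labels describe these cells as granulocyte-macrophage progenitors grown in GM-CSF, and all of them carried a PU.1-inducible system. Induced cells had received 1000 ng/ml doxycycline for 72 hours and uninduced control cells none, with 2 libraries per condition and 1 list of called peaks per library. The weak sites were chosen by their peaks: overlapping peaks of the 4 lists were joined into regions, and a region was taken when it had a peak in all 4 lists and its highest peak score stayed below 100 in both uninduced lists. They made up 9.11% of the 19391 regions with a peak in every list and 2.13% of all 82810 regions. The score is the authors' own value per peak, with a minimum of 50, so the weak sites filled the lowest part of the scale before induction.

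PU.1, encoded by Spi1, is an ETS-family transcription factor that binds purine-rich DNA with a GGAA core and directs myeloid and B-lymphoid development. The amount of PU.1 in a progenitor is known to bear on the lineage it takes, with high levels linked to macrophage fate. A site can be occupied weakly because few cells bind it or because binding is short-lived, and peak lists do not tell these apart. Nor do they tell weak binding from background calls near the minimum score. The labels do not say which form of PU.1 the inducible system makes, nor whether the replicates were separate cultures, and the differences between libraries of a condition may be technical.

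The 4 lists differed in length, from 31960 peaks in uninduced replicate 1 to 68076 in induced replicate 1, and their read depth is unknown. Ranks were therefore taken among the same 19391 regions in each list, as percentiles where 0 is the lowest score and 100 the highest. Uninduced replicate 1 stood apart: over these regions its scores had a Spearman correlation of 0.36 and 0.38 with induced replicates 1 and 2 and of 0.62 with uninduced replicate 2. Uninduced replicate 2 correlated at 0.74 and 0.75 with the induced lists, which correlated with each other at 0.95. These are descriptions across regions of the same libraries. Because the choice of the weak sites read the uninduced scores, and 2 libraries against 2 cannot give a two-sided permutation p below 0.333, the values below carry no test.

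Before induction the weak sites scored between 50 and 100 by definition, with a median of 68.9 in uninduced replicate 1 and 73.2 in uninduced replicate 2. In induced replicate 1 their median score was 185, with the middle of the distribution (quartiles) from 110 to 300.2 and a highest value of 2369. In induced replicate 2 the median was 118, with quartiles of 79.8 and 195 and a highest value of 1329. The score in both induced lists exceeded that in both uninduced lists at 1280 weak sites (72.5%), against 54.2% of all regions with a peak in every list. Scores from lists of different depth are not on a common scale, so the ranks carry the comparison.

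In rank the weak sites stood somewhat higher in the induced lists and were still low there. Their median percentile was 12.8 in uninduced replicate 1 and 7.44 in uninduced replicate 2, and it was 18.9 and 18.02 in induced replicates 1 and 2. The median rise, taken as the mean induced minus the mean uninduced percentile of each site, was 7.93 points, with quartiles of -1.29 and 23.0 and a range from -17.6 to 81.4. The other 17625 regions with a peak in every list had a median rise of -0.84 points. Each induced list was also set against each uninduced list, which makes 4 pairs. The median rise of the weak sites was 6.07 and 6.13 points against uninduced replicate 1 and 11.2 and 10.3 points against uninduced replicate 2. At single weak sites the induced replicates differed by a median of 6.10 points and the uninduced ones by 7.53 points, the latter within the narrow range that the choice allowed (15.6 points over all regions with a peak in every list).

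**Figure D1:**
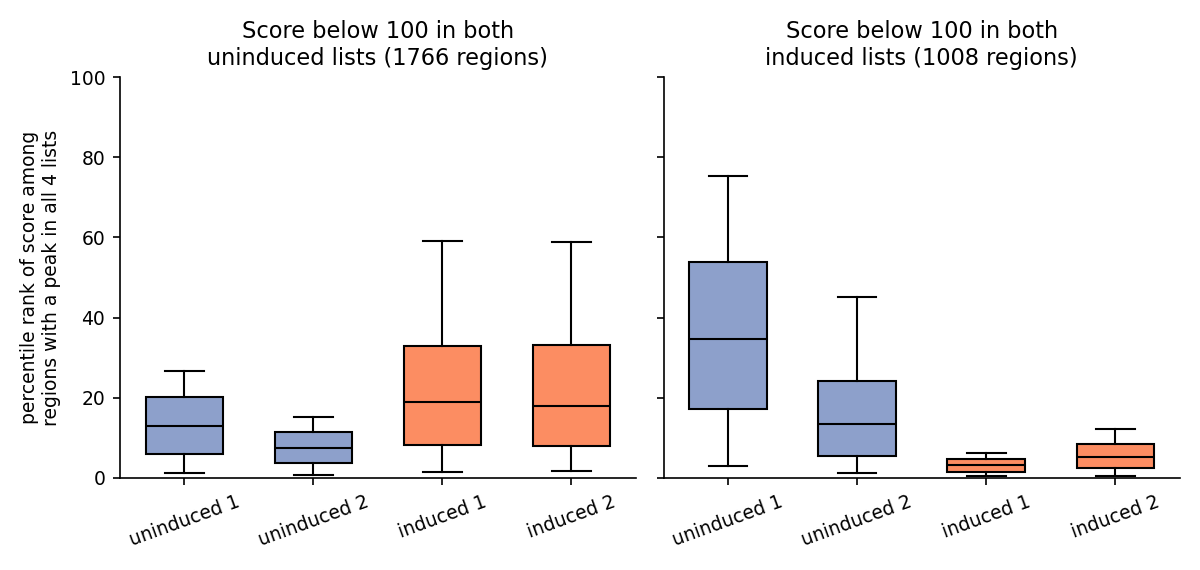
Percentile rank of the region score (vertical axis, 0 to 100, among the 19391 regions with a peak in all 4 lists) in each of the 4 lists. Boxes span the quartiles with the median as a line, and whiskers run from the 5th to the 95th percentile of regions. Left, the 1766 weak sites, with medians of 12.8 and 7.44 in the uninduced and 18.9 and 18.02 in the induced lists. Right, the 1008 regions chosen the opposite way, below 100 in both induced lists, with medians of 34.6 and 13.3 in the uninduced and 3.06 and 5.12 in the induced lists.

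Some rise was built into the choice, since regions picked for low scores in a pair of lists tend to rank higher in any list that was not used. The opposite choice was made for comparison. The 1008 regions below 100 in both induced lists stood at a median percentile of 34.6 in uninduced replicate 1 and 13.3 in uninduced replicate 2. In the induced lists they stood at 3.06 and 5.12, a median difference of -20.7 points. That shift was larger than the rise of the weak sites, but the limit of 100 cuts at unlike depths. Below it lay 6.49% and 13.3% of the 19391 regions in induced replicates 1 and 2, and 28.5% and 16.0% in uninduced replicates 1 and 2. For the 1766 regions with the lowest mean induced percentile the median difference was -20.1 points. Their medians were 34.9 and 14.3 in uninduced replicates 1 and 2, and 5.02 and 5.17 in the induced lists. This opposite shift was thus much larger against uninduced replicate 1, the library that stood apart. For the 1766 with the lowest mean uninduced percentile the median difference was 10.4 points. Their medians were 8.32 and 8.10 in the uninduced and 20.5 and 19.7 in the induced lists. A choice that read only 1 uninduced list gives a second view. The 3109 regions below 100 in uninduced replicate 2 alone had a median percentile of 8.02 there, 24.2 in the unused uninduced replicate 1, and 17.2 and 16.9 in the induced lists. They thus lay lower in both induced lists than in the other uninduced library. The 5536 regions below 100 in uninduced replicate 1 alone went from 14.3 there to 27.5 in uninduced replicate 2 and to 37.5 and 37.2 in the induced lists.

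At 883 weak sites (50.0%) the percentile in both induced lists lay above that in both uninduced lists, against 30.6% of all regions with a peak in every list. The opposite order, both induced below both uninduced, was found at 176 weak sites (9.97%), against 30.8% of those regions. Both shares follow the direction that the choice favours, so nothing is read from their distance to the background. Without uninduced replicate 1 in the comparison the same 1766 sites had a median rise of 10.8 points, and 1231 (69.7%) lay above in every remaining pair. Without uninduced replicate 2 the rise was 6.34 points, and 980 sites (55.5%) lay above. Fewer pairs have to agree once a library is left out, so these counts are not comparable with the 883. Over all regions with a peak in every remaining list, the shares above were 41.8% and 46.0%.

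The weak sites were not uniform after induction. The score stayed below 100 in both induced lists at 293 sites (16.6%), lay below 100 in 1 of them at 466 (26.4%) and reached 100 in both at 1007 (57.0%). Of all 19391 regions with a peak in every list, 1008 lay below 100 in both induced lists. In induced replicates 1 and 2 taken singly, 6.49% and 13.3% of them did so. Reaching 100 in both induced lists was thus more common over all these regions than at the weak sites. The exact share over all regions was not taken, nor that of regions below 100 in 1 induced list. Only 127 sites (7.19%) ranked above percentile 50 in both induced lists, and 1 ranked above percentile 90 in both. No share over all regions was taken for these percentile counts, so they describe the weak sites only. The induced replicates ordered the weak sites alike, with a Spearman correlation of 0.79 over the 1766 sites. Their uninduced scores, which the choice had confined to a narrow range, correlated with the induced scores at -0.03 and -0.03 for uninduced replicate 1 and at 0.17 and 0.16 for uninduced replicate 2. Between the 2 uninduced lists the correlation over these sites was 0.04.

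Single sites are named below outside chromosome 18, which was left out of the naming, so each order holds for the other chromosomes. They are ordered by the smallest of the 4 differences between an induced and an uninduced percentile. The site with the largest rise by this measure lay on chromosome 7, 148155997 to 148157970 (mouse build mm9, counted from 1, as are all positions here). Its scores were 51.2 and 53.3 in uninduced replicates 1 and 2 and 1221 and 861 in induced replicates 1 and 2, which took it from percentiles of 1.07 and 0.93 to 81.2 and 83.5. It was barely called before induction and stood in the top part of the ranking afterwards. The site on chromosome 5, 148536220 to 148540813, was the only one above percentile 90 in both induced lists. Its scores were 79.5 and 91.6 before and 2017 and 1329 after induction, the highest induced scores among the weak sites named. It was also broad, with 1882 and 2167 bp called in the uninduced lists and 4588 and 4322 bp in the induced ones.

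The next site lay on chromosome 9, 64640506 to 64643764, with scores of 61.4 and 70.4 before and 1187 and 755 after induction. The authors' merged uninduced list held no peak there, although both uninduced libraries did. A site on chromosome 3, 108184250 to 108187279, went from 68.9 and 75.2 to 1281 and 837. Another on chromosome 5, 125819139 to 125822834, went from 72.2 and 94.1 to 1341 and 938. At each of these sites the lower induced score exceeded the higher uninduced score.

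Chromosome 19 gave 3 of the 10 largest rises. The site at 28084168 to 28087305 had scores of 53.1 and 55.1 before and 933 and 634 after induction, and it lay 441 kb from the nearest strong site, defined as a region scoring at least 100 in both uninduced lists and present in all 4. The site at 40711647 to 40714943 went from 78.5 and 92.3 to 1669 and 1001. The site at 46130271 to 46132323 went from 56.7 and 58.7 to 988 and 612, and its called width changed little, from 1801 and 1617 bp to 2053 and 1563 bp. The last 2 of the 10 were chromosome 7, 86614334 to 86616092, from 53.2 and 50.6 to 770 and 625, and chromosome 15, 59511980 to 59513967, from 70.6 and 87.8 to 1101 and 700.1.

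**Figure D2:**
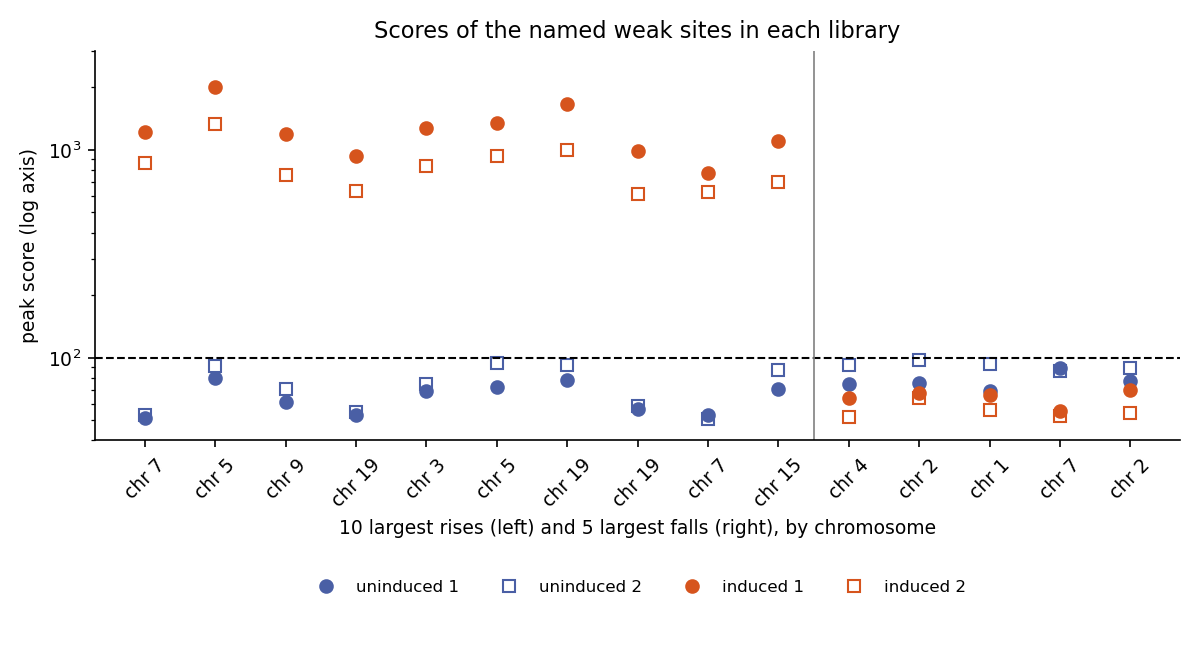
Peak score (log axis) in each of the 4 libraries for the 10 weak sites outside chromosome 18 with the largest rise in rank and the 5 with the largest difference in the other direction, in order and labelled by chromosome. The dashed line is the limit of 100. At the 10 sites on the left every induced score is at least 612 and every uninduced score is below 100, whereas at the 5 on the right all 4 scores lie between 50 and 100.

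At the other end, some weak sites ranked lower in both induced lists than in both uninduced ones. The largest such difference was on chromosome 4, 126077932 to 126078854, with scores of 74.7 and 92.2 before and 63.9 and 51.8 after induction, or percentiles of 16.4 and 13.5 against 1.44 and 0.43. The next was chromosome 2, 92304448 to 92305540, with 75.8 and 97.8 before and 67.8 and 64.1 after. The others were chromosome 1, 167711270 to 167712250 (69.4 and 93.5 to 66.0 and 56.3), chromosome 7, 147485379 to 147486283 (88.8 and 86.6 to 55.6 and 52.5), and chromosome 2, 71587032 to 71587998 (77.6 and 89.4 to 69.9 and 54.2). All 5 were single peaks of 663 to 1078 bp in every list. At these sites the scores themselves were also lower in both induced than in both uninduced lists.

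Just inside the limit of 100 lay chromosome 7, 87329814 to 87330854, with uninduced scores of 99.99 and 66.9 and induced scores of 171 and 93.9, and chromosome 1, 39658975 to 39660010, with 63.0 and 99.98 before and 184 and 104 after. The third, chromosome 6, 72848052 to 72850573, had 99.98 and 59.3 before and 807 and 394 after. Just outside lay chromosome 5, 136152385 to 136154355 (84.98 and 100.03 before, 315 and 255 after), chromosome X, 9039521 to 9040566 (61.6 and 100.03, then 249 and 169), and chromosome 16, 49803668 to 49805025 (62.4 and 100.04, then 239 and 144).

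Weak sites with a higher uninduced score were more often kept. Of all 4592 regions with a peak below 100 in both uninduced lists, 1766 (38.5%, 95% Wilson interval 37.1 to 39.9%) had a peak in both induced lists and are the sites described here, 598 (13.0%) had one in 1 induced list, and 2228 (48.5%) had none. Where the higher of the 2 uninduced scores was 50 to 60, 28.6% (24.6 to 33.0%) were kept in both. At 90 to 100 the share was 49.8% (46.7 to 53.0%), at 100 to 110 it was 58.1%, and at 190 to 200 it was 89.2%. Among the kept regions the median score in induced replicate 1 did not follow the 5 weak bands in order, at 159, 163, 196, 179 and 205 from the lowest to the highest, and in induced replicate 2 it was 102, 106, 136, 115 and 129. At 190 to 200 it was 376 and 240.1. The median rise in rank was 13.5, 8.74, 11.8, 5.09 and 5.62 points over the weak bands and 2.39 points at 190 to 200. The intervals cover counting error only, and being kept was part of the choice, so these shares are a description.

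**Figure D3:**
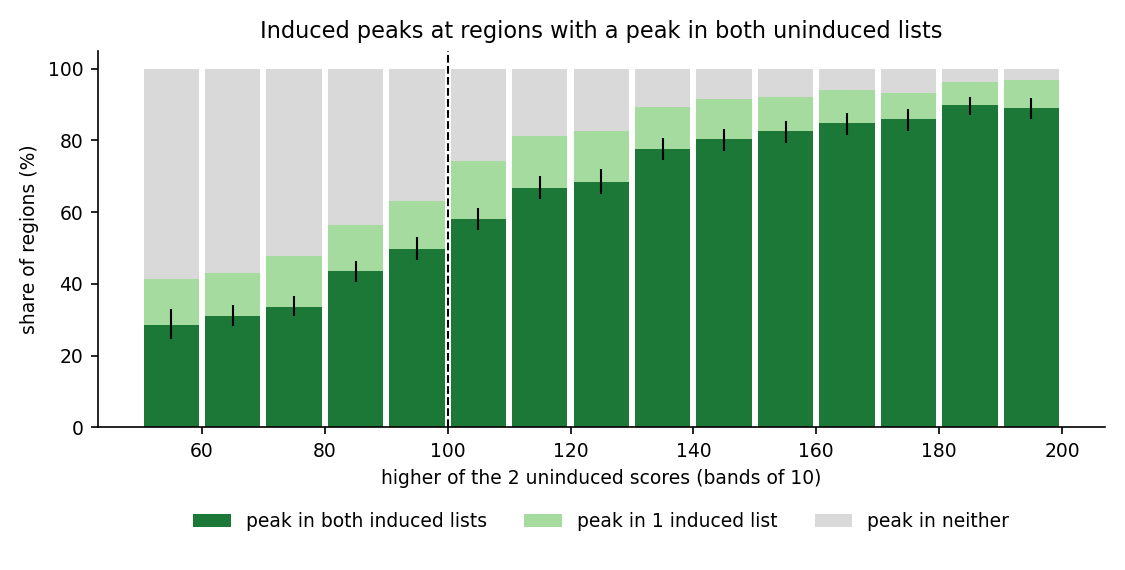
Share of regions (vertical axis, percent) with a peak in both, in 1 or in neither induced list, by the higher of their 2 uninduced scores in bands of 10. Error bars are 95% Wilson intervals of the share kept in both. The dashed line is the limit of 100. The share kept in both runs from 28.6% in the lowest band to 89.2% in the highest.

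Weak sites that were kept and weak sites without an induced peak differed in where they lay, which the choice had not used. A region with a peak in both uninduced lists, whatever its state after induction, lay within 10 kb of 46.8% (44.5 to 49.2%) of the 1766 kept sites, of 31.3% (27.7 to 35.1%) of the 598 kept in 1 induced list, and of 10.9% (9.68 to 12.3%) of the 2228 that had no induced peak. For a strong site within 10 kb these shares were 33.8% (31.6 to 36.0%), 18.7% (15.8 to 22.1%) and 4.80% (3.99 to 5.77%), and the median distance to the nearest strong site was 22.4, 53.8 and 239 kb. The sites without an induced peak were also narrower before induction. Their median widths were 774.5 and 687 bp in uninduced replicates 1 and 2, whereas the kept sites measured 880 and 820 bp. Among sites whose higher uninduced score was 90 to 100, these widths were 818 and 709.5 bp at the 364 without and 908 and 863 bp at the 492 with a peak in both induced lists. Neighbouring regions are not independent, so no test was made of these differences.

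In their surroundings the kept weak sites were close to strong sites as a class. Another strong site lay within 10 kb of 35.9% of the 12512 strong sites, and a gained region, called in both induced libraries and in no uninduced one, lay within 10 kb of 33.3% of the weak and 34.1% of the strong sites. A region of any kind lay within 10 kb of 79.3% (77.3 to 81.1%) of the weak and 82.9% (82.3 to 83.6%) of the strong sites. The Wilson intervals cover counting error only and neighbouring regions are not independent, so their overlap was not used as a test. Another weak site lay within 10 kb of 4.42% of the weak sites, and a weak site lay that near to 5.95% of the strong sites and 3.96% of the gained regions. Of the 18414 gained regions, 23.5% (22.9 to 24.2%) had a strong site within 10 kb, fewer than of the weak sites.

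In induced level the weak sites stood between gained and strong sites. Their medians of 185 and 118 in induced replicates 1 and 2 compare with 138 and 94.7 at gained regions and 670 and 432 at strong sites. The distributions overlapped widely: 64.0% and 63.4% of the weak sites scored above the gained median in induced replicates 1 and 2. Below the lower quartile of strong sites lay 78.0% and 77.9% of them. Regions weak in only 1 uninduced library went different ways. The 3770 weak in uninduced replicate 1 only had induced medians of 459 and 294, and the 1343 weak in uninduced replicate 2 only had 159 and 110, below those of the sites weak in both. A further 12052 regions had a peak in both induced lists and in uninduced replicate 2, but none in uninduced replicate 1. Their induced medians were 303 and 192, above those of the weak sites. The classes thus did not follow an order by uninduced calls.

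Called width was larger in the induced lists, and about as often at the weak sites as elsewhere. The median width was 880 and 820 bp in uninduced replicates 1 and 2 and 1024.5 and 934 bp in induced replicates 1 and 2. The median ratio of mean induced to mean uninduced width was 1.17 (quartiles 1.03 and 1.38), against 1.15 at the other 17625 regions. Over the 4 pairs of lists the median ratio of the weak sites ran from 1.08 to 1.28, while the 2 induced lists differed by a ratio of 1.09 and the 2 uninduced lists by 1.08. Both induced widths exceeded both uninduced widths at 845 weak sites (47.8%), against 49.9% of all regions with a peak in every list. Both were narrower at 97 (5.49%), against 5.78%. Each share is near its background.

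Among the weak sites, those with a larger rise in rank had wider induced peaks. The 442 sites with the largest rises, of 23.0 points or more, had a median width ratio of 1.43, and 78.5% of them were wider in every pair. The 442 with the smallest, from -17.6 to -1.30 points, had a ratio of 1.03, and 20.4% were wider in every pair. The steps between were 1.11 and 1.22. Score and width come from the same peak calls, so the width is no separate evidence of the rise in rank.

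**Figure D4:**
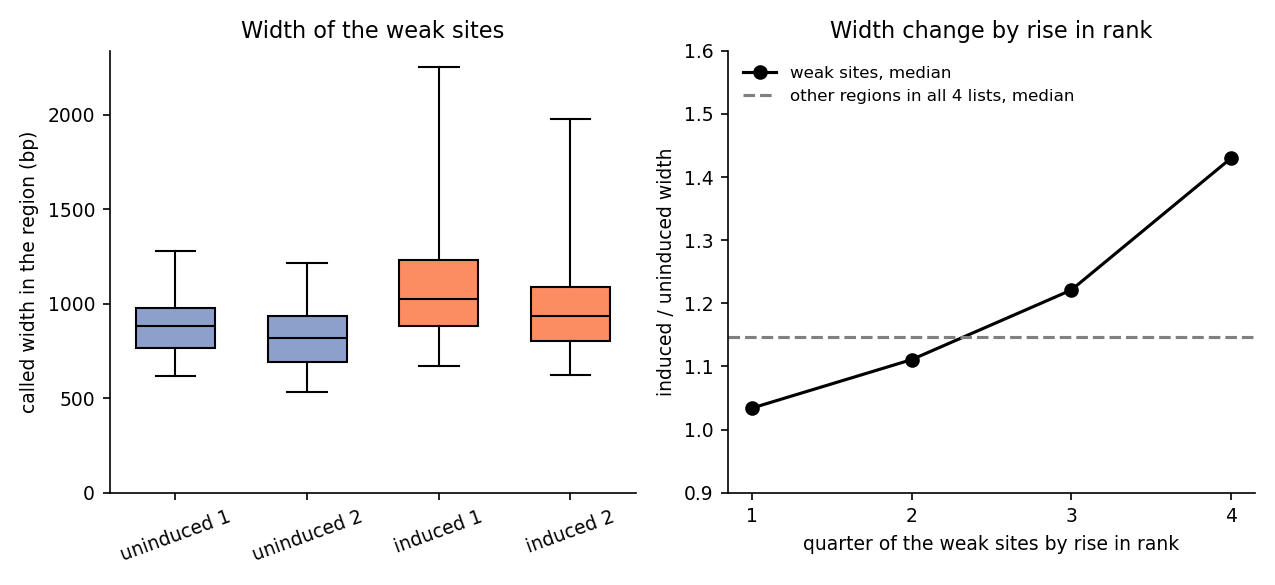
Left, width called within each weak site (bp) in the 4 lists, as boxes of the quartiles with the median and whiskers from the 5th to the 95th percentile of sites. Right, median ratio of induced to uninduced width (axis starting at 0.9) for the weak sites in 4 equal groups by rise in rank, from 1.03 in the lowest to 1.43 in the highest. The dashed line is the median of 1.15 at the other regions with a peak in all 4 lists.

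The greatest widening was seen on chromosome 3, 93246884 to 93252085, where 941 and 981 bp in uninduced replicates 1 and 2 became 5174 and 5167 bp in the induced lists, in 1 peak each. Its scores went from 94.8 and 65.4 to 1235 and 962. On chromosome 19, 8969974 to 8975375, 1041 and 942 bp became 5339 and 4485 bp. There the 2 induced scores were far apart, at 1115 and 153, and induced replicate 2 held 3 peaks where replicate 1 held 1. On chromosome X, 131579525 to 131587688, several peaks per list covered 7311 and 7671 bp after and 1217 and 2351 bp before induction. The remaining 2 of the 5 widest changes were chromosome 14, 61350517 to 61353715 (1021 and 872 to 3157 and 2996 bp), and chromosome 4, 138753166 to 138756267 (719 and 661 to 2481 and 2009 bp). These 5 were exceptions, since the mean induced width was over 2 times the mean uninduced width at 102 weak sites (5.78%), against 3.83% of all regions with a peak in every list. A single peak in every list was held by 94.2% of the weak sites, and among these the share was 3.13%. Neither value was taken over the other regions, so the 3.13% is not to be set against the 3.83%.

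Of the 5 weak sites that were highest by their lower induced score, 2 are not among those given so far. Chromosome 5, 104858834 to 104860477, scored 94.9 and 82.1 before and 1251 and 946 after induction. Chromosome 3, 96065373 to 96069230, scored 96.7 and 63.8 before and 1465 and 943 after.

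Peak centres at the weak sites lay close together in all lists. The centres of the best-scoring peaks of an uninduced and an induced list lay a median of 68 to 71 bp apart, against 59.5 bp between the induced replicates and 62 bp between the uninduced ones. The best uninduced peak lay wholly inside the best induced peak at 36.0% to 63.6% of the weak sites over the 4 pairs, and the reverse held at 5.72% to 19.03%. Between replicates of a condition, the best peak of induced replicate 2 lay inside that of induced replicate 1 at 44.3%, and that of uninduced replicate 2 inside that of uninduced replicate 1 at 34.8%, so the shares across conditions lay partly in the range of the replicates. These distances and shares were taken at the weak sites only, so they show no trait particular to them. All regions were built from overlapping peaks, and called width was larger in the induced lists at the other regions too.

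Weak sites with large rises were unevenly spread. At 250 sites (14.2%) the percentile was over 25 points higher in every pair of lists, against 5.16% of all regions with a peak in every list, a direction that the choice favours. Their median scores went from 62.1 and 75.7 to 550.1 and 357. Chromosome 19 held 26 of them among its 76 weak sites (34.2%), and 11.9% of the other regions there that had a peak in every list did so. On chromosome 3 they were 16 of 38 weak sites (42.1%) and 17.8% of the other regions between 85 and 120 Mb, and 9 of 62 (14.5%) and 3.88% on the rest of the chromosome. Outside chromosomes 3 and 19 they were 199 of 1590 weak sites (12.5%) and 3.76% of the other regions. The median rise was 19.8 points on chromosome 19 and 16.2 on chromosome 3, and from 3.81 on chromosome 1 to 13.9 on X elsewhere. On chromosome 19 the other regions with a peak in every list also ranked higher in the induced lists, by a median of 7.31 points. Between 85 and 120 Mb of chromosome 3 the 38 weak sites had a median rise of 29.8 points and the 275 other regions 12.5 points. This segment was taken because earlier results of these same libraries showed its shift. Its values are therefore no separate evidence of uneven spread. As a share of the regions present in every list, weak sites ranged from 6.56% on chromosome 16 to 11.6% on chromosome 19.

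**Figure D5:**
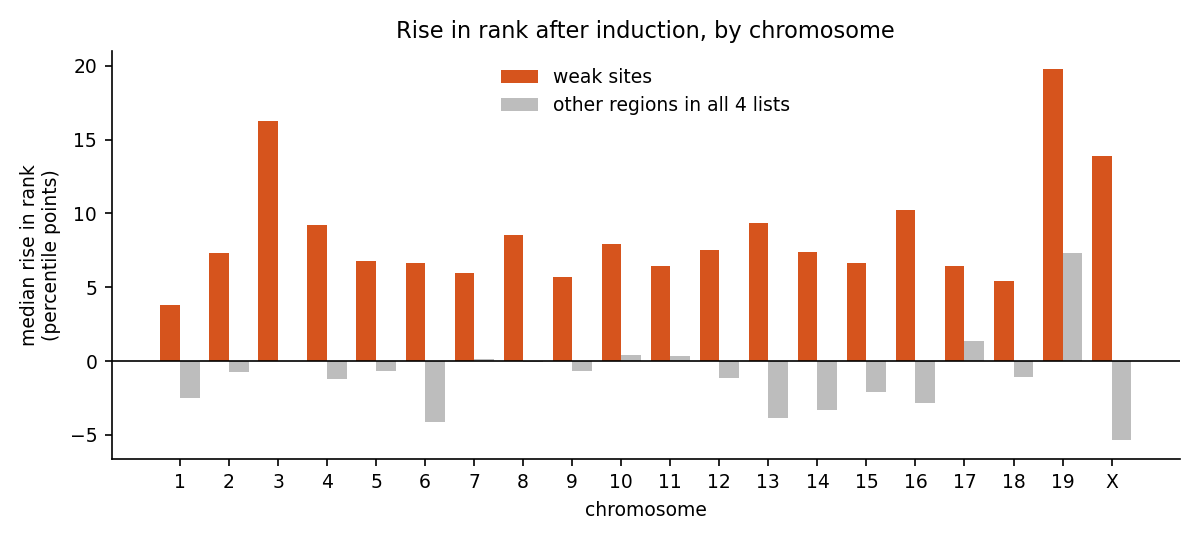
Median rise in rank (percentile points, mean induced minus mean uninduced) by chromosome for the weak sites and for the other regions with a peak in all 4 lists. The weak sites have a positive median on every chromosome, which the choice of low uninduced scores favours, with the highest values of 19.8 on chromosome 19 and 16.2 on chromosome 3.

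The authors' merged lists, which the choice had not read but which come from the same libraries, held most of the weak sites. A peak of the merged uninduced list overlapped 1755 of them and a peak of the merged induced list 1762. Their median score was 103 in the merged uninduced list, with 45.3% below 100, and 256 in the merged induced list. Ranked among the regions found in both merged lists, they had a median percentile of 5.14 before and 18.2 after induction, and the median rise was 12.1 points. The median width ratio was 1.12, against 1.11 at the other regions. The 11 weak sites with no peak in the merged uninduced list had a median rise of 26.2 points in the lists of the single libraries, and the 4 with none in the merged induced list had a median of -7.21 points.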

How the data were processed

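Peak lists of 4 PU.1 ChIP libraries (2 induced, 2 uninduced) and 2 lists merged by the authors were analysed; the 2 labelled input libraries were not analysed here. Per the submitters' processing notes, the authors used Trim Galore, Bowtie, MACS 1.4.1 and build mm9. The deposited score is 1 value per peak with a minimum of 50 and no stated scale; use of an input in peak calling, the read filters and the way of merging are not stated there. Depth is unknown, which limits how far an absent peak can be read.

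Samples were grouped by title. Peaks sharing at least 1 bp were joined into regions; a region's score in a list is its highest peak score and its width the summed length of its peaks. Percentile ranks were taken among regions with a peak in all 4 lists. Distances run edge to edge. Shares carry 95% Wilson intervals. No test was run, since the choice of members read the scores compared. The members, lists and rules were chosen with earlier results of these data known. The regions named are the 10 largest rises and 5 largest falls in rank, by the least favourable pair of lists, the 5 largest width changes, the 5 highest lower induced scores and 3 regions on each side of the limit; chromosome 18 was left out of the naming. Genes, promoters and motifs were not examined, because the reference tables at hand are of another build, so no gene or sequence is given. Alternatives were another overlap rule, other score limits, lists of equal length, the merged lists, leaving out libraries and same-numbered pairs. Python 3.11.15, NumPy 2.4.6, pandas 2.3.3, SciPy 1.17.1 and matplotlib 3.10.9 were used, and the functions were tested on simulated data.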

Additional observations from a re-analysis of the deposited data

How the results depend on the processing

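The median rise in rank was positive and the median width ratio above 1 under every alternative run, which the choice of low uninduced scores favours. The number of weak sites, 1766, was 608 with a score limit of 75, 4323 with 150, 3672 when regions at or below percentile 33.3 in both uninduced lists were taken, 5536 and 3109 when only uninduced replicate 1 or only uninduced replicate 2 was read, and 443 with lists of equal length. The sites above in every pair numbered 375 (61.7%), 1834 (42.4%), 1807 (49.2%) and 2811 (50.8%) under the first 4 of these. With lists of equal length they numbered 260 (58.7%). In the merged lists, which make a single pair, 1453 of 1751 sites (83.0%) ranked higher in the induced list. A single pair is met more easily than all 4, so this share is not comparable with the main one. No share over all regions was taken under these settings. The median rise of 7.93 points was 15.0 and 1.54 when only uninduced replicate 1 or only replicate 2 was read, 12.4 with lists of equal length, 12.1 in the merged lists and 22.6 when ranks were taken among all peaks of a list, a scale that moves with list length. The width ratio was 1.29 with lists of equal length. When sites were chosen again without each library in turn, they numbered 1971 to 9577. The rise ran from 6.98 to 20.0 points and the width ratio from 1.10 to 1.26. The sites above in every remaining pair numbered 1124 to 5924, or 56.7% to 71.7%. Among all regions with a peak in every remaining list that share was 35.4% to 46.0%. The highest number of sites came without uninduced replicate 1 and the highest rise without uninduced replicate 2. With the same 1766 sites and 1 library left out of the difference, chosen after seeing the data, the rise ran from 6.34 to 10.8 points, the width ratio from 1.12 to 1.23 and the sites above from 980 to 1231. With the replicate block, in which only same-numbered libraries were paired, the rise is 7.93 points by arithmetic, so it is no check on the main value. Its width ratio was 1.18, and 1007 sites lay above in both pairs. Counts with a library left out or with same-numbered pairs rest on fewer pairs than the main count. The labels give the same-numbered libraries no link beyond the number. The correlation of their deviations from the group means was -0.03 over the regions in all lists. This value cannot tell whether they shared a culture or a batch. Medians moved by more than the SD of the 4 pairs (2.72 points in rank, 0.08 in width ratio) were counted as changed.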
